A study of Mus musculus with 8 samples.

Results

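Ischemia-reperfusion (I/R) injures the kidney by holding back its blood supply and then letting it return. Wild-type mouse kidneys taken 3 days after I/R were compared gene by gene with wild-type kidneys that the labels list without I/R. The genes were chosen by level alone: a mean of at least 1 FPKM (fragments scaled to gene length and library size) over the 8 libraries of the study, which left 13304 of the 54965 genes in the deposited table. Whole-kidney RNA was sequenced from 2 wild-type samples after I/R and 2 wild-type samples without it, called controls below, and from 4 samples of Utx Pax2-Cre mice, 2 after I/R and 2 without. In the Utx Pax2-Cre mice, Cre under the control of Pax2, which is active in the lineages that build the kidney and not in all renal cells, targets Utx, a histone demethylase gene that the files list as Kdm6a; the wild-type samples are labelled only as WT. The shared protocol speaks of a sham operation or I/R, but the labels of the 2 controls give genotype and number only, so a sham operation cannot be read from them. The sources used here do not give strain, sex, age or the length of ischemia. No label ties a library to an animal, so every p-value below measures only the spread between libraries, which may be technical.

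The nephron reclaims the filtered load in series. The proximal tubule takes back most salt, glucose, amino acids and phosphate and burns fatty acids to do so, and its last part, S3, in the outer medulla, is the part most exposed when blood flow stops. The thick ascending limb, the distal convoluted tubule and the collecting duct then adjust salt, calcium, acid and water. In rodents, tubule cells that survive ischemia flatten, switch on injury genes such as Havcr1, re-enter the cell cycle in the following days and later regain their transporters, while macrophages enter and fibroblasts lay down matrix.

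13304 genes were tested with limma on log2(FPKM + 1), and genes with a Benjamini-Hochberg adjusted p under 0.05 count as called. In all, 4992 genes (37.5%) were called, 2319 of them higher after I/R (17.4%) and 2673 lower (20.1%); these shares are the background against which each count below can be read. For all 4992 called genes the I/R libraries lay on the same side of both controls, and so they did for 9564 of all tested genes (71.9%). The split between higher and lower rests on the scale of the FPKM values: when the libraries were set to an equal sum of FPKM, the median difference over all genes moved from -0.03 to 0.22 and 4842 genes were called higher and 1231 lower. The rise side held the larger differences: 668 genes were called higher and 434 lower by at least 1 on the log2 scale, and 21 and 10 by at least 3. Genes called higher had a median level of 3.69 FPKM in the controls and 7.52 FPKM after I/R, and genes called lower 17.9 and 11.6 FPKM. The control level is part of the contrast that sorted these genes, so part of the gap in the controls follows from the sorting. Reads in genes numbered 17367872 and 18307096 in the controls and 16780542 and 18497835 after I/R. The median gene differed between replicates by 0.103 in the controls and by 0.116 after I/R on the log2 scale. Between the controls 173 genes were more than 2-fold higher in replicate 1 and 75 in replicate 2; those higher in replicate 1 included the B cell gene Cd79a (6.94 and 0.721 FPKM), the spleen macrophage gene Marco (8.92 and 0.0642) and the adipocyte gene Cfd (26.6 and 0.268). In such bulk samples, fewer cells of a type and less RNA per cell cannot be told apart. Below, levels are given as FPKM of replicate 1 and replicate 2, controls first, and the value in parentheses is the difference on the log2(FPKM + 1) scale with its standard error (SE).

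**Figure D1:**
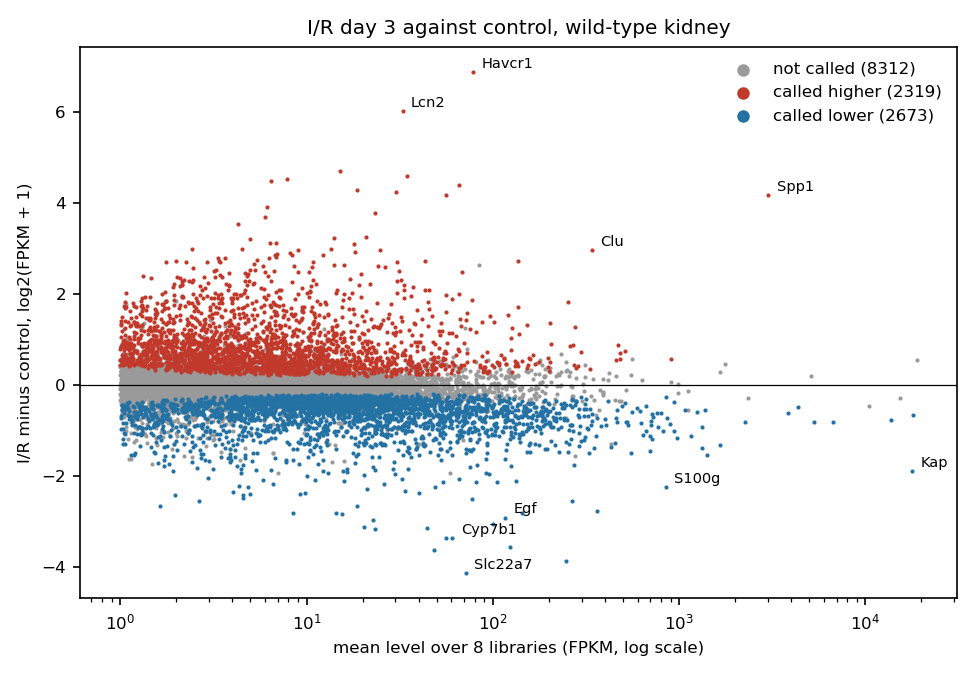
Difference after I/R in wild type on the log2(FPKM + 1) scale (vertical axis) against the mean level over the 8 libraries in FPKM (horizontal axis, log scale), 1 point per tested gene, with genes called higher in red, genes called lower in blue and the rest in grey. The red points reach 6.87 (Havcr1) and lie mostly at low mean levels, the blue points reach -4.14 (Slc22a7) and extend to the highest levels.

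Genes known from injured tubule cells led the rise. Havcr1 (ENSMUSG00000040405, chromosome 11, from 46735080 to 46779578 on the plus strand, build GRCm38), which encodes the shed membrane protein KIM-1, went from 1.07 and 0.749 to 241 and 204 FPKM (6.87 ± 0.11; limma, adjusted p = 1.44e-06). Both I/R libraries lay far above both controls. Lcn2, which encodes the iron-carrier-binding protein NGAL, went from 0.655 and 0.589 to 85.9 and 124 FPKM (6.01 ± 0.23, adjusted p = 3.91e-05 by limma). Spp1, the gene of the secreted phosphoprotein osteopontin, went from 400.4 and 348 to 6841 and 6579 FPKM (4.17 ± 0.11) and ranked 7 by mean level in the I/R kidneys. Timp1, an inhibitor of matrix metalloproteinases, rose from 0.502 and 0.627 to 34.7 and 45.6 FPKM (4.71 ± 0.16). The small calcium-binding protein gene S100a6 rose from 9.03 and 7.46 to 169.6 and 220.2 FPKM (4.40 ± 0.24). Clu, which encodes the secreted chaperone clusterin, was already at 108 and 91.04 FPKM in the controls and reached 718 and 836 (2.95 ± 0.12). Of a list of tubular injury and repair genes all 30 tested members were called higher, with a median difference of 2.51 against -0.03 for all tested genes. The gene lists used here and below were written with earlier results of these data known, so their counts are descriptions and not tests. Listed genes under the level filter were not tested, and genes low without I/R could pass it through their I/R levels. This tilts counts towards rises in lists with such genes. Tested were 17 of 24 listed macrophage and monocyte genes, 14 of 18 fibroblast and mural genes, 16 of 25 matrix protease genes and 19 of 30 cytokine genes. The smallest rises in that list were those of Krt7 (0.54 ± 0.09), of Prom1, the gene of the progenitor surface protein prominin-1 (0.83 ± 0.08), and of Itgb6, an integrin subunit that activates TGF-beta (1.14 ± 0.07). The members thus ran over a range from 0.54 to 6.87. Cxcl1 (1.94 ± 0.44) no longer passed without control replicate 2 (adjusted p = 0.0751) or without I/R replicate 1 or 2 (adjusted p = 0.0667 and 0.0526).

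**Figure D2:**
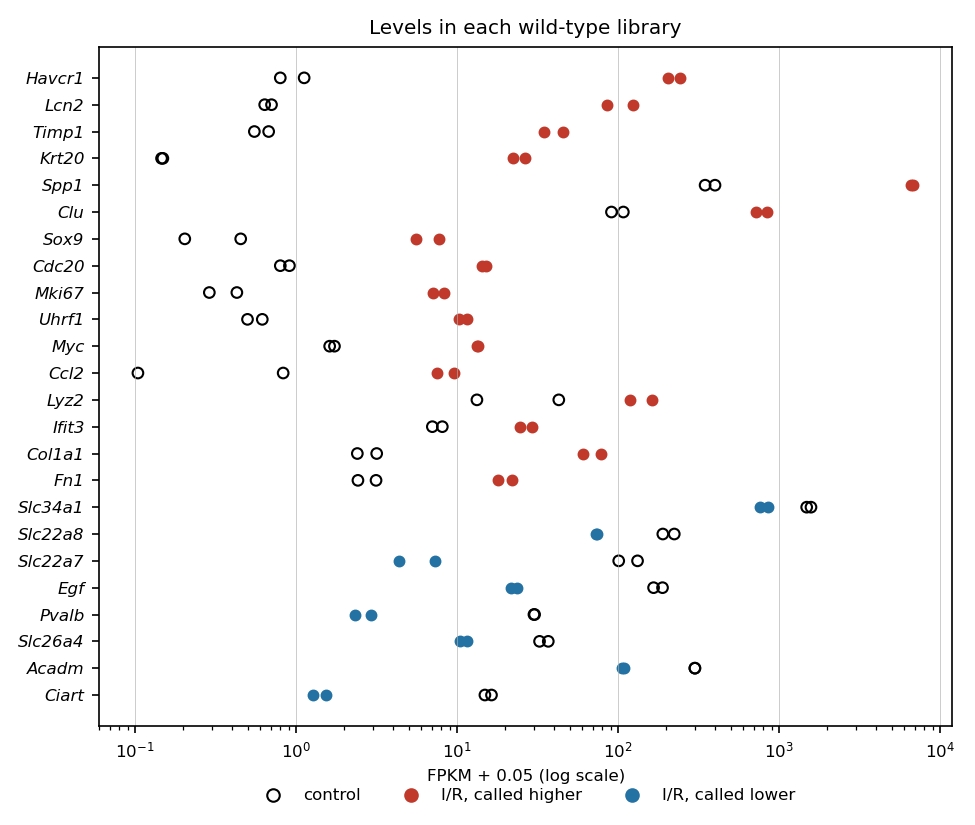
FPKM (horizontal axis, log scale with 0.05 added so that values of 0 can be drawn) of 24 genes in each wild-type library, with open circles for the 2 controls and filled circles for the 2 I/R libraries. For every gene drawn the 2 filled circles lie on the same side of both open circles, from Havcr1, at 1.07 and 0.749 in the controls and 241 and 204 after I/R, to Slc22a7, at 132 and 101 and 4.31 and 7.23.

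Some genes were close to absent in the controls. A set of 14 genes lay under 0.5 FPKM in both controls and at or above 5 FPKM in both I/R libraries. Krt20, a keratin of gut and bladder surface epithelium, had 3 reads in each control and went from 0.0991 and 0.0963 to 26.3 and 22.3 FPKM (4.52 ± 0.10). Sprr2f, a proline-rich protein that is crosslinked into the envelope of stratified epithelia, had 0 reads in both controls and 24.8 and 18.3 FPKM after I/R, and its near-identical relative Sprr2g, at 0.196 and 0 FPKM, reached 13.2 and 10.4; reads may be shared between the 2 genes. Il1f6, which encodes the epithelial cytokine IL-36 alpha, also had 0 reads in both controls and reached 7.74 and 6.07 FPKM. Clcf1, a cytokine gene of the interleukin 6 family that was above that limit in the controls, went from 2.11 and 1.28 to 13.9 and 13.8 FPKM (2.48 ± 0.15). Sox9, a transcription factor gene of the developing nephron, went from 0.154 and 0.404 to 7.72 and 5.54 FPKM (2.57 ± 0.24). Serpina10, a protease inhibitor gene, rose from 0.309 and 0.194 to 16.5 and 13.7 FPKM, and the chemokine genes Ccl20 and Ccl9 reached 5.36 and 6.02 and 5.13 and 7.05 FPKM. Smpdl3b, the gene of a membrane lipid phosphodiesterase, reached 5.32 and 5.96 FPKM. Mki67, Top2a and Tpx2, which mark dividing cells, and the annotated transcript Gm42793 were also in the set. The opposite pattern, at or above 5 FPKM in both controls and under 0.5 after I/R, was met by 2 features, the pseudogene Gm44966 and the T cell receptor joining segment Trbj2-7, both with few reads.

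Promoter sequence was read for genes of this group from RefSeq windows of build GRCm38.p6, which reach from 250 bases before a gene's start to 50 after it; 9349 of the 13304 genes had such a window. Positions below count back from the start of the gene, all sequences are printed 5′ to 3′ in the sense of the gene, and a match is a description of letters, not a measured site. The parts before the start of Krt20, a gene of this set, and of Sprr1a, an epithelial surface gene with low levels in the controls that is outside it, are shown for the motifs marked in them. Capitals mark the TATA box, spelled here as TATAAA, in both, GGAATG (the TEAD motif, on either strand) in Krt20 and TGANTCA (the AP-1 motif) in Sprr1a.
Krt20: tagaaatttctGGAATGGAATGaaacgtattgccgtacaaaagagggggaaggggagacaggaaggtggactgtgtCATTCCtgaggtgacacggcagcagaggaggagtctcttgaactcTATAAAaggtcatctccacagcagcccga
Sprr1a: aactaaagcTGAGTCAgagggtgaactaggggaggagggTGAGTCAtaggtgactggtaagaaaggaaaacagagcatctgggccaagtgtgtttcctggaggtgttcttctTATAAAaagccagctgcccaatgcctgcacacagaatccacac
The Krt20 window (chr11:99438154-99438303, minus strand) holds GGAATG at -139 and -134 on the gene's strand and at -74 on the other, and the TATA box at -29. In the Sprr1a window (chr3:92485882-92486036, minus strand) AP-1 motifs begin at -146 and -116 and the TATA box at -43; Sprr1a went from 4.89 and 1.53 to 33.3 and 37.2 FPKM (3.23 ± 0.43). Among the 482 genes with a window that were called higher by at least 1 on the log2 scale, 13.5% held a TATA box and 8.51% an AP-1 motif. The shares were 7.06% and 4.78% in all tested genes with a window and 14.2% and 7.93% in all RefSeq windows. In the 275 genes called lower by at least 1 they were 15.6% and 5.82%, so the TATA box was not particular to the genes that rose. The share with a TEAD motif among all tested genes was 11.9%, and it was 8 of 10 in a list of genes targeted by YAP and TEAD factors.

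Genes of cell structure mostly rose. The cell types behind these rises were not tested in this whole-kidney RNA. Of 28 actin and tubulin cytoskeleton genes 27 were called higher, with a median of 1.27. Capg, an actin-capping protein gene, went from 3.52 and 2.54 to 30.5 and 30.9 FPKM (2.99 ± 0.19). Tmsb10, which encodes an actin-monomer-binding thymosin, went from 16.5 and 10.1 to 90.2 and 92.5 FPKM (2.73 ± 0.21). The tubulin gene Tubb5 went from 18.03 and 14.3 to 67.9 and 81.3 FPKM (2.14 ± 0.14). The 27 rises included Tpm4 and Flna, a tropomyosin and a crosslinking filamin (1.98 ± 0.14 and 1.80 ± 0.18), and the one member without a call, Actn4, differed by 0.18 ± 0.10. Keratins of simple epithelia rose: Krt18 from 8.81 and 8.48 to 51.7 and 65.04 FPKM (2.61 ± 0.13). Krt19 went from 2.16 and 1.23 to 17.8 and 16.96 FPKM (2.79 ± 0.28). The partner of Krt18, Krt8, went from 66.6 and 67.6 to 175 and 179 FPKM (1.38 ± 0.09). Of 9 annexin genes, whose products bind membranes in the presence of calcium, 6 rose, led by Anxa3 (from 3.598 and 3.004 to 28.6 and 31.3 FPKM; 2.85 ± 0.12) and Anxa2 (from 11.4 and 9.18 to 66.95 and 78.04 FPKM; 2.71 ± 0.19). Among 21 cell junction genes 12 were higher and 3 lower. The claudin genes Cldn1 and Cldn4, whose proteins set the tightness of the paracellular path, rose from 1.34 and 1.69 to 16.9 and 16.2 FPKM (2.81 ± 0.12) and from 9.39 and 9.06 to 62.2 and 58.6 FPKM (2.59 ± 0.11). The connexin gene Gjb2 fell from 45.5 and 57.6 to 24.4 and 19.8 FPKM (-1.18 ± 0.18), while the proximal tubule claudin Cldn2 was not called (181 and 198 against 167 and 154 FPKM; -0.24 ± 0.08).

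Transport genes of the proximal tubule fell. In the S3 list 11 of 14 genes were lower and none higher, with a median of -1.16. Slc22a7 (ENSMUSG00000067144, chromosome 17, from 46432183 to 46438457 on the minus strand), which encodes the organic anion transporter OAT2, went from 132 and 101 to 4.31 and 7.23 FPKM (-4.14 ± 0.29; limma, adjusted p = 1.52e-04), the greatest fall of any gene tested. Cyp7b1, an oxysterol hydroxylase gene, went from 107 and 84.8 to 9.73 and 7.04 FPKM (-3.37 ± 0.36). The amino acid transporter gene Slc7a13 went from 450 and 473 to 60.9 and 99.04 FPKM (-2.55 ± 0.24). The nicotinate and urate carrier gene Slc22a13 went from 40.1 and 37.7 to 10.8 and 5.53 FPKM (-2.19 ± 0.29). Acy3, an aminoacylase gene that was among the most abundant transcripts, went from 1857 and 1645 to 567 and 782 FPKM (-1.39 ± 0.17). Other S3 genes held their level more closely: the glucose carrier gene Slc5a1 was at 23.3 and 24.2 and 24.5 and 22.8 FPKM (-0.01 ± 0.09), though called higher at an equal sum of FPKM, and the neutral amino acid carrier gene Slc6a18 at 190.2 and 186 and 166 and 145 (-0.27 ± 0.10), neither called.

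In the list of the earlier segments, S1 and S2, 12 of 20 genes were lower and 1 higher, with a median of -0.81. Slc34a1, the main phosphate carrier gene, went from 1486 and 1579.9 to 856 and 759 FPKM (-0.93 ± 0.13; adjusted p = 0.00172 by limma). Slc22a8 and Slc22a6, which encode the organic anion transporters OAT3 and OAT1, went from 189.8 and 224 to 73.95 and 72.6 FPKM (-1.48 ± 0.14) and from 403 and 407 to 181 and 236 FPKM (-0.96 ± 0.14). The water channel gene Aqp1 went from 403 and 424 to 223 and 203 FPKM (-0.95 ± 0.11). Both I/R libraries lay below both controls in each of these genes. Slc13a1, a sulfate carrier gene, was the member that rose, from 56.4 and 58.1 to 103 and 86.3 FPKM (0.71 ± 0.11). Basolateral exit carriers were not called: Slc2a2, the glucose carrier GLUT2, stood at 34.4 and 40.8 and 34.6 and 34.7 FPKM (-0.11 ± 0.12) and Slc4a4, the bicarbonate exit carrier, at 95.9 and 109.7 and 89.5 and 85.2 (-0.23 ± 0.14). Across organic ion and drug transporters 17 of 23 genes fell and 3 rose. The risers were the efflux pump genes Abcc3 (from 0.592 and 0.478 to 2.19 and 2.09 FPKM; 1.03 ± 0.13), Abcb1b (from 1.19 and 1.3 to 4.07 and 2.82 FPKM; 0.97 ± 0.18) and Abcc4 (from 9.57 and 9.12 to 14.7 and 15.5 FPKM; 0.64 ± 0.11), while the uptake carriers Slco1a1 and Slc22a19 fell (log2 differences of -2.37 and -2.37). Among all 254 tested solute carrier (Slc) genes 112 were lower and 33 higher. Slc25a24, an ATP-Mg and phosphate carrier gene of mitochondria, and Slc34a2, a phosphate carrier gene known from lung and gut, rose from 1.19 and 1.298 to 10.5 and 13.4 FPKM (2.52 ± 0.14) and from 0.635 and 0.666 to 7.796 and 9.08 FPKM (2.51 ± 0.12). Hnf4a, the gene of a nuclear receptor of the proximal tubule, went from 199 and 231 to 150.4 and 129.8 FPKM (-0.61 ± 0.11), a call lost at an equal sum of FPKM.

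Brush border genes changed unevenly. Of 21 such genes 12 were lower, 1 was higher and 8 were not called. The meprin protease genes Mep1b and Mep1a fell from 78.3 and 71.6 to 15.5 and 14.4 FPKM (-2.25 ± 0.23) and from 572 and 602 to 233 and 224 FPKM (-1.36 ± 0.13). Ace, the angiotensin-converting enzyme gene, went from 65.1 and 56.6 to 22.2 and 25.6 FPKM (-1.31 ± 0.10). Lrp2, the gene of the endocytic receptor megalin, went from 154 and 172 to 108 and 87.4 FPKM (-0.74 ± 0.14). The endocytosis genes Amn and Dab2 stood at 121 and 123 and 72.5 and 76.2 FPKM in the controls and 126 and 125 and 74.7 and 70.5 after I/R. The microvillus genes Cdhr2 and Myo7b were likewise not called (-0.04 ± 0.10 and -0.02 ± 0.14). The lower count depends on scale and library: it was 6 at an equal sum of FPKM, where the call of Lrp2 was also lost, and 8 without control replicate 2. Kap, the androgen-regulated kidney protein gene and the most abundant transcript of the controls, went from 25596 and 26347 to 5848 and 8426 FPKM (-1.89 ± 0.25), a call lost with no filter on low genes. All 12 tested genes of a list with higher levels in male than female mouse kidney were lower, among them Cyp4b1 (from 2061 and 2236 to 659 and 831 FPKM; -1.53 ± 0.13) and Cyp2e1 (from 939.8 and 1043 to 422 and 445 FPKM; -1.19 ± 0.11). Of 8 female-biased genes 3 were lower and 2 higher, with Cyp2a4 at 564 and 591 and then 80.6 and 87.4 FPKM (-2.77 ± 0.17) and Cyp4a14, a fatty acid hydroxylase gene, at 19.2 and 24.3 and then 129.7 and 51.1 (1.87 ± 0.38, and 1.21 without I/R replicate 1); the balance of the list was 2 lower and 3 higher without I/R replicate 2. Genes of these cytochrome families have near-identical copies, and their values are uncertain for that reason. The sources used here do not give sex, so a sex difference between the groups and I/R cannot be told apart for these 2 lists.

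**Figure D3:**
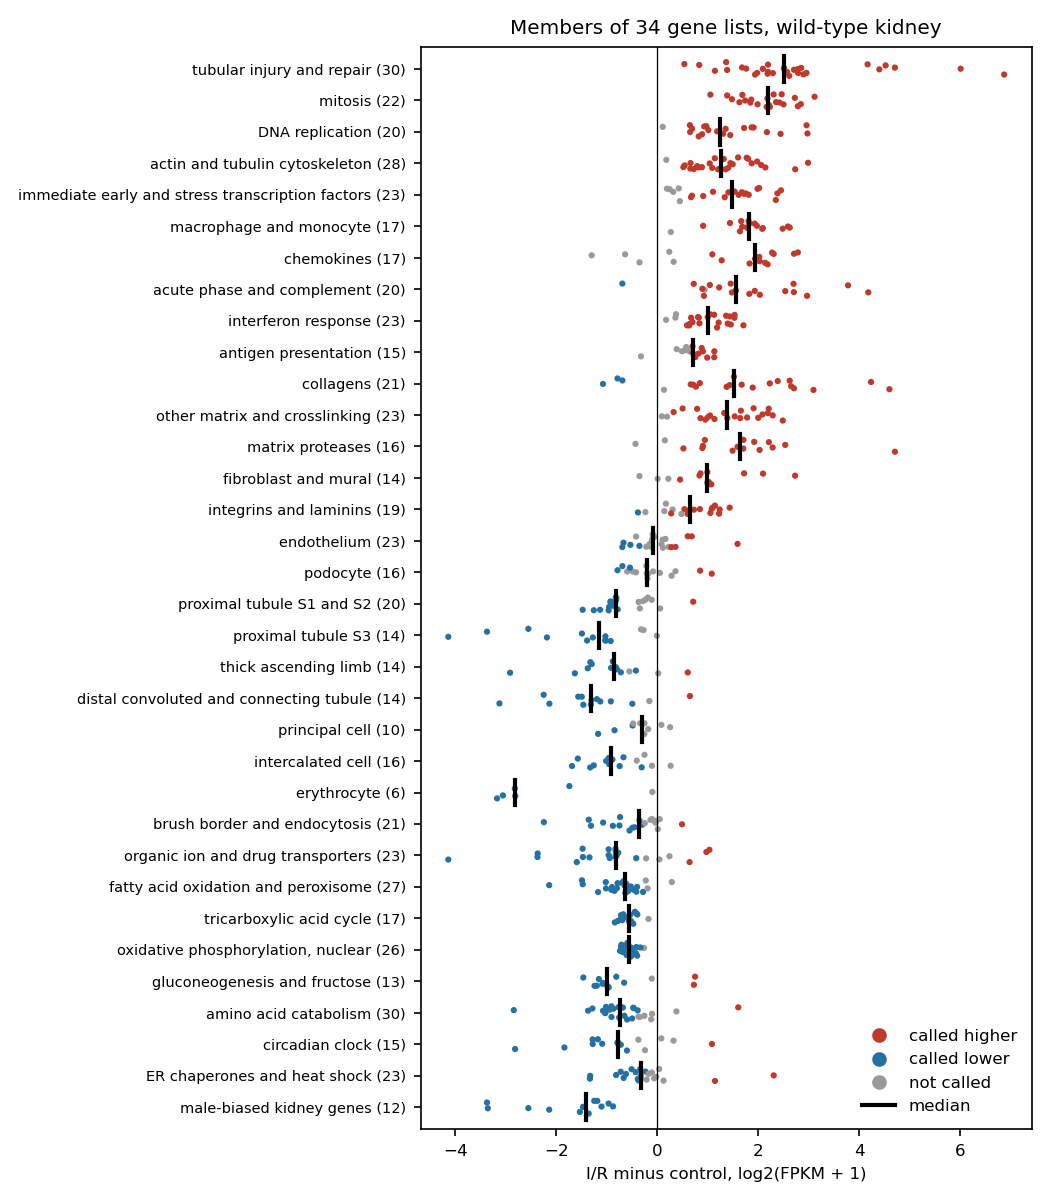
Difference after I/R in wild type on the log2(FPKM + 1) scale (horizontal axis) for every tested member of 34 gene lists (rows), 1 point per gene, red for called higher, blue for called lower and grey for neither, with a black bar at the list's median. Row medians run from -2.82 in the erythrocyte list to 2.51 in the tubular injury list.

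Distal segments fell too. In the list of the distal convoluted and connecting tubule 12 of 14 genes were lower, with a median of -1.31. The calcium-binding protein genes Pvalb, S100g and Calb1 went from 30.01 and 30.3 to 2.88 and 2.28 FPKM (-3.13 ± 0.15), from 1093 and 1051 to 223 and 226 FPKM (-2.25 ± 0.11) and from 111 and 110 to 20.6 and 28.7 FPKM (-2.14 ± 0.16). Slc12a3, the thiazide-sensitive sodium chloride carrier gene, went from 192 and 179.5 to 64.9 and 68.1 FPKM (-1.47 ± 0.20). Kl, which encodes the FGF23 co-receptor Klotho, went from 118 and 117 to 40.4 and 41.5 FPKM (-1.50 ± 0.12). The calcium channel gene Trpv5 was the member called higher (from 7.69 and 8.58 to 12.9 and 13.6 FPKM; 0.65 ± 0.16); it no longer passed without any of the 4 wild-type libraries in turn (adjusted p = 0.0901, 0.0544, 0.0667 and 0.0884). In the thick ascending limb 11 of 14 genes were lower and 1 higher. Egf, a growth factor gene transcribed mainly in distal tubule segments, went from 189 and 166 to 23.7 and 21.6 FPKM (-2.92 ± 0.10; limma, adjusted p = 2.69e-05). Slc12a1, the furosemide-sensitive carrier gene, and Kcnj1, the potassium channel ROMK, went from 255 and 179 to 87.4 and 84.8 FPKM (-1.30 ± 0.23) and from 75.1 and 73.7 to 24.95 and 31.4 FPKM (-1.38 ± 0.12). Umod, the gene of uromodulin and a defining marker of this segment, stood at 1394 and 1078 and 758 and 918 FPKM (-0.55 ± 0.21) and was not called (adjusted p = 0.0772 by limma), as was the claudin gene Cldn16 (9.17 and 9.44 and 9.34 and 9.53 FPKM). Without I/R replicate 1 the count of the lower thick limb genes was 7.

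Collecting duct genes were read by cell type. In the intercalated cell list 12 of 16 genes were lower and none higher, with a median of -0.92. Slc26a4, the chloride-bicarbonate exchanger gene pendrin of type B cells, went from 32.5 and 36.9 to 10.4 and 11.5 FPKM (-1.58 ± 0.09). Slc4a1, the exchanger AE1 of type A cells, went from 11.2 and 9.82 to 3.44 and 4.19 FPKM (-1.26 ± 0.10). The proton pump subunit gene Atp6v1b1 went from 31.5 and 31.6 to 15.7 and 17.5 FPKM (-0.89 ± 0.10). The ammonia channel gene Rhcg went from 63.9 and 67.2 to 33.95 and 32.9 FPKM (-0.95 ± 0.07). Foxi1, the transcription factor gene that defines these cells, was not called (10.2 and 10.5 and 8.42 and 10.7 FPKM; -0.11 ± 0.15). Of 10 principal cell genes 3 were lower: Aqp3 (from 67 and 69 to 29 and 30.2 FPKM; -1.17 ± 0.13), Scnn1a (from 47.6 and 41.2 to 22.2 and 26.3 FPKM; -0.85 ± 0.11) and Hsd11b2 (-0.49 ± 0.08), whose call was lost at an equal sum of FPKM. With the 4 wild-type libraries alone 5 were lower. The vasopressin-regulated water channel gene Aqp2 was at 162 and 130.2 FPKM and then 118 and 125 (-0.26 ± 0.23) and was not called. Segment medians of -0.81, -1.16, -0.85, -1.31, -0.92 and -0.30 (S1 and S2, S3, thick limb, distal convoluted tubule, intercalated, principal) describe these lists; whether they differ was not tested. The sodium pump beta subunit gene Atp1b1 fell from 903 and 887 to 546 and 631 FPKM (-0.61 ± 0.10). Fxyd5, a pump-modulating subunit gene, rose from 2.43 and 1.83 to 6.57 and 7.81 FPKM (1.39 ± 0.14).

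Cells outside the tubule were read from their own lists. Of 17 tested macrophage and monocyte genes 16 were higher, with a median of 1.81. Plac8, Cd14, the gene of the endotoxin co-receptor, and Lyz2, the macrophage lysozyme gene, went from 5.195 and 3.88 to 35.7 and 30.3 FPKM (2.62 ± 0.13), from 4.09 and 2.83 to 26.5 and 24.6 FPKM (2.59 ± 0.16) and from 42.8 and 13.3 to 118 and 163 FPKM (2.48 ± 0.46). The complement genes C1qa and C1qb of resident macrophages rose from 20.98 and 18.8 to 77.6 and 68.2 FPKM and from 20.99 and 16.7 to 82.7 and 81.7 FPKM, the monocyte chemokine receptor gene Ccr2 from 0.574 and 0.595 to 2.85 and 3.79 FPKM and the fractalkine receptor gene Cx3cr1 from 0.918 and 0.906 to 5.504 and 5.89 FPKM. Csf1r, the receptor gene that defines the lineage, was the member without a call (15.9 and 11.7 and 15.5 and 17.9 FPKM; 0.27 ± 0.18). Its ligand genes Csf1 and Il34 rose from 2.29 and 1.38 to 13.2 and 14.3 FPKM (2.40 ± 0.15) and from 17.96 and 16.4 to 44.2 and 40.7 FPKM (1.26 ± 0.11). Only 3 neutrophil genes reached the level filter, and Csf3r alone of them was called (from 0.599 and 0.377 to 1.59 and 1.64 FPKM; 0.82 ± 0.14), with 2 of the 3 called at an equal sum of FPKM or without I/R replicate 2; the granule genes Ly6g, Mpo and Ltf were at or near 0 in all 4 libraries. Of the dendritic cell list, Cd74, the class II invariant chain gene, stood at 204 and 139 and 278 and 160 FPKM (0.32 ± 0.28) without a call. Ptprc, the pan-leukocyte gene CD45, stood at 1.55 and 0.577 and 1.56 and 1.43 FPKM (0.32 ± 0.22), not called, with control replicate 1 at the level of the I/R libraries and control replicate 2 below them. For lymphocytes the controls themselves disagreed: Igkc was at 609 and 231 FPKM in them and 275 and 187 after I/R, and Trbc2 at 5.7 and 1.16 and 1.04 and 0.893, and neither was called. In the B and plasma cell list 1 of 7 genes was called lower; without control replicate 2 the count was 6, and without control replicate 1, 1 gene was higher and none lower. None was called at an equal sum of FPKM or with the 4 wild-type libraries alone. The immunoglobulin gene Iglc2 (from 12.8 and 3.94 to 2.73 and 1.01 FPKM; -1.59 ± 0.49) was that call, lost without control replicate 1 (-0.85, adjusted p = 0.1399) or I/R replicate 2 (adjusted p = 0.193). Cd8a fell from 2.52 and 2.99 to 0.871 and 1.22 FPKM (-0.88 ± 0.16).

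Red cell transcripts were lower. Hba-a1 and Hbb-bs, the adult globin genes, went from 292 and 139 to 27.2 and 20.04 FPKM (-3.06 ± 0.32) and from 413 and 191 to 39.9 and 38.4 FPKM (-2.81 ± 0.32). Alas2, the heme synthesis gene of erythroid cells, went from 5.48 and 2.78 to 0.486 and 0.471 FPKM (-1.74 ± 0.24). In the list 5 of 6 genes were lower, with a median of -2.82. Globin genes have near-identical copies, so reads may be divided between them, but the copies in the list moved the same way. Globin transcripts come with the blood held in a tissue, and the part of blood in other results was not tested. Pf4, a platelet and macrophage chemokine gene, rose from 1.68 and 0.343 to 9.95 and 13.7 FPKM (2.74 ± 0.38). Of 23 endothelial genes 5 were higher and 4 lower, against 8 and 1 at an equal sum of FPKM and 2 and 4 with the 4 wild-type libraries alone. The tissue plasminogen activator gene Plat rose from 5.85 and 6.98 to 19.1 and 23.7 FPKM (1.59 ± 0.15). The progenitor marker gene Cd34 went from 2.95 and 2.95 to 5.54 and 5.14 FPKM (0.68 ± 0.08). The glomerular gene Ehd3 fell from 5.41 and 6.298 to 3.55 and 3.06 FPKM (-0.67 ± 0.11). Pecam1, the defining gene CD31, did not pass (9.96 and 8.32 and 10.02 and 9.71 FPKM; 0.10 ± 0.10). The VEGF receptor gene Kdr fell from 8.79 and 10.01 to 4.96 and 5.92 FPKM (-0.69 ± 0.14), a call lost without control replicate 2 (adjusted p = 0.0503) and at an equal sum of FPKM, and Vegfa, its ligand of tubule and podocyte origin, fell from 76.4 and 85.8 to 45.3 and 40.7 FPKM (-0.90 ± 0.09). Podocyte genes showed 3 lower and 2 higher of 16, and 6 and 4 with the 4 wild-type libraries alone. Wt1, a transcription factor gene of these cells, was not called (-0.21 ± 0.16). The basement membrane collagen gene Col4a4 fell from 32.7 and 32.6 to 17.02 and 20.03 FPKM (-0.79 ± 0.09). Nes, the intermediate filament gene nestin, rose from 3.51 and 3.49 to 8.15 and 8.87 FPKM (1.08 ± 0.14). The balance of the podocyte list turned at an equal sum of FPKM (3 higher and 1 lower) and with the replicate block (3 higher and 2 lower), and that of the endothelial list without I/R replicate 2 (2 higher and 3 lower); without control replicate 1 and 2 the endothelial counts were 3 and 3, and 2 and 2.

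Matrix genes rose almost throughout. Of 14 fibroblast and mural cell genes 11 were higher and none lower, 7 higher without control replicate 2 (and 1 lower) or without I/R replicate 1. Pdgfrb, the receptor gene of pericytes and fibroblasts, went from 5.22 and 5.09 to 17.95 and 20.7 FPKM (1.72 ± 0.11). Acta2, the smooth muscle actin gene of myofibroblasts, went from 19.6 and 8.54 to 50.9 and 68 FPKM (2.09 ± 0.33). Mgp, a matrix mineralisation inhibitor gene, went from 47.9 and 35.5 to 276 and 282 FPKM (2.73 ± 0.16). The contractile gene Myh11 and the pericyte gene Rgs5 did not pass (-0.35 ± 0.25 and 0.01 ± 0.20). Collagen genes counted 17 higher and 3 lower of 21. The fibrillar genes Col3a1, Col1a1 and Col1a2 went from 2.63 and 2.13 to 64.3 and 101 FPKM (4.60 ± 0.21), from 3.12 and 2.36 to 60.9 and 77.97 FPKM (4.23 ± 0.19; limma, adjusted p = 4.77e-05) and from 3.63 and 3.61 to 33.6 and 43.9 FPKM (3.09 ± 0.14). The beaded filament genes Col6a1 and Col6a2 rose by 2.62 and 2.65. Type IV collagen divided by chain: Col4a1 and Col4a2, present in all basement membranes, rose from 30.2 and 26.7 to 104 and 112 FPKM (1.89 ± 0.12) and from 27.5 and 26.1 to 76.1 and 81.1 FPKM (1.52 ± 0.11). Col4a3 and Col4a4, the chains of the mature glomerular membrane, fell. Col4a3 went from 28.7 and 26.04 to 14.8 and 18.5 FPKM (-0.69 ± 0.13), a call lost at an equal sum of FPKM. Col27a1, a cartilage-type fibrillar collagen, fell from 12.2 and 15.2 to 5.24 and 6.71 FPKM (-1.08 ± 0.21) and lost its call without control replicate 2 (adjusted p = 0.0508) or I/R replicate 1 (adjusted p = 0.0519). Of 23 further matrix and crosslinking genes 21 rose, led by Fn1, the fibronectin gene (from 3.09 and 2.38 to 17.9 and 21.9 FPKM; 2.49 ± 0.17), the fibrillin gene Fbn1 (from 0.918 and 0.816 to 6.58 and 8.55 FPKM; 2.19 ± 0.16), and Lox, a lysyl oxidase (from 0.476 and 0.2699 to 4.32 and 6.498 FPKM; 2.21 ± 0.21). Matrix proteases and their inhibitors counted 14 higher of 16, with Mmp14, a membrane-bound collagenase (from 1.33 and 1.12 to 8.59 and 11.3 FPKM; 2.28 ± 0.15), Adamts1 (from 7.68 and 9.15 to 41.96 and 42.9 FPKM; 2.21 ± 0.09) and the urokinase receptor gene Plaur (from 1.46 and 1.299 to 13.2 and 12.4 FPKM; 2.53 ± 0.22). Timp3, the inhibitor most abundant in the controls, was at 159 and 164 and 118 and 121 FPKM and was not called. Integrins and laminins counted 13 higher and 1 lower of 19, with Itga3 at 1.43 ± 0.14.

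Cell cycle genes rose from low levels. All 22 tested mitosis genes and 19 of 20 DNA replication genes were higher, with medians of 2.20 and 1.24. The lists hold 28 and 26 genes, and the others were not tested. The level filter uses the mean over all 8 libraries, so genes low without I/R, such as Mki67, passed it through their I/R levels. These counts are therefore tilted towards rises by the filter. Cdc20 and Ube2c, the activator and the ubiquitin-conjugating enzyme of the anaphase-promoting complex, went from 0.749 and 0.861 to 15.1 and 14.2 FPKM (3.11 ± 0.10; limma, adjusted p = 2.69e-05) and from 0.587 and 0.285 to 8.08 and 9.65 FPKM (2.78 ± 0.15). Mki67, the proliferation marker gene, went from 0.379 and 0.2397 to 7.03 and 8.29 FPKM (2.72 ± 0.15). Top2a went from 0.494 and 0.391 to 6.55 and 7.804 FPKM (2.50 ± 0.12). The mitotic cyclin Ccnb2 went from 0.997 and 1.33 to 15.1 and 13.9 FPKM (2.84 ± 0.11). Among replication genes, Uhrf1, which recruits maintenance DNA methylation, went from 0.568 and 0.45 to 11.5 and 10.3 FPKM (2.97 ± 0.15). The ribonucleotide reductase gene Rrm2 went from 1.93 and 1.696 to 18.96 and 22.8 FPKM (2.96 ± 0.14). The helicase subunit gene Mcm5 went from 1.24 and 1.16 to 11.01 and 10.9 FPKM (2.44 ± 0.13). Mcm10 was the member without a call (0.11 ± 0.11). Of 14 D-type cyclin and CDK inhibitor genes 8 were higher and 2 lower, with differences from -0.54 to 1.98. Cdkn1a, the inhibitor gene p21, went from 3.06 and 2.04 to 12.8 and 12.9 FPKM (1.98 ± 0.26). The D-type cyclins did not share the rise, with Ccnd2 (0.18 ± 0.11) and Ccnd3 (-0.06 ± 0.06) not called and Ccnd1 lower (from 46.3 and 49.7 to 36.9 and 39.6 FPKM; -0.32 ± 0.09), a call lost without any of the 4 wild-type libraries in turn (adjusted p = 0.0563, 0.138, 0.116 and 0.0513) and at an equal sum of FPKM. Their kinases Cdk4 and Cdk6 rose from 19.5 and 21.5 to 35.3 and 33.7 FPKM (0.73 ± 0.07) and from 2.45 and 2.28 to 4.55 and 4.66 FPKM (0.74 ± 0.08).

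The starts of 3 mitosis genes are shown because most of this list held both of the motifs marked. Capitals mark CCAAT and TTTGAA, the CHR element, on either strand (ATTGG and TTCAAA on the other).
Cdc20: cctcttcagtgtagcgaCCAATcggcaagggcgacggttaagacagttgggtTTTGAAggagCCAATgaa
Ube2c: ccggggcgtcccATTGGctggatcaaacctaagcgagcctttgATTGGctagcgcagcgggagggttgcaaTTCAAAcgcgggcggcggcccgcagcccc
Mki67: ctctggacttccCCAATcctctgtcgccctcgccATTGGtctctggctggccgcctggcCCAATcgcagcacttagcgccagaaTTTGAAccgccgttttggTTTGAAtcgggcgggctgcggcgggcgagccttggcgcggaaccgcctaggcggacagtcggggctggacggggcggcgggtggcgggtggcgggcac
These lie at chr4:118437344-118437413 (minus strand), chr2:164769829-164769928 (plus strand) and chr7:135716380-135716579 (minus strand). A CHR element begins at -18 in Cdc20, at -29 in Ube2c and at -116 and -98 in Mki67, with CCAAT boxes upstream of it in all 3. Of the 17 mitosis genes with a window 14 held a CHR element (82.4%) and 15 a CCAAT box (88.2%), against 11.5% and 38.1% of all tested genes and 18.1% and 37.9% of all RefSeq windows in the table. Of the 17 DNA replication genes with a window 12 held a CCAAT box (70.6%), 5 the E2F motif TTCCCGC (29.4%, against 8.16% of all tested genes) and 2 a CHR element. No list was tested for these shares.

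Transcription factor genes of the stress response rose. Of 23 immediate early and stress factor genes 18 were higher and none lower, with a median of 1.48. Myc went from 1.57 and 1.68 to 13.5 and 13.2 FPKM (2.45 ± 0.11). Atf3 went from 0.6203 and 0.603 to 8.08 and 6.74 FPKM (2.38 ± 0.21). Klf6 went from 8.04 and 7.76 to 36.1 and 33.95 FPKM (2.02 ± 0.10). The AP-1 subunit genes Fosl1, Fosl2 and Junb went from 0.522 and 0.543 to 4.04 and 4.31 FPKM (1.76 ± 0.11), from 2.22 and 1.63 to 7.63 and 8.16 FPKM (1.61 ± 0.12) and from 12.1 and 9.92 to 38.1 and 36.2 FPKM (1.67 ± 0.17). Fos itself, at 2.54 and 2.13 and 4.61 and 4.12 FPKM (0.69 ± 0.21), lost its call without any of the 4 wild-type libraries in turn (adjusted p = 0.0817, 0.165, 0.159 and 0.101). NF-kappa-B members Relb and Nfkb2 rose from 1.16 and 1.13 to 6.97 and 5.28 FPKM (1.72 ± 0.13) and from 6.89 and 4.89 to 19.7 and 16.6 FPKM (1.48 ± 0.15). By annotated family, 13 of 35 bZIP genes were higher and 3 lower, 8 of 20 ETS genes were higher and 1 lower, and of 303 zinc finger C2H2 genes 28 were higher and 20 lower. Thyroid and nuclear hormone receptor genes went the other way, with 9 of 15 lower and 1 higher. Lower factors outside the clock included Klf15, a glucocorticoid-induced Krüppel-like factor (from 68.2 and 75.8 to 28.9 and 32.95 FPKM; -1.19 ± 0.14), Lhx1, of the developing nephron (from 9.72 and 10.7 to 4.51 and 4.78 FPKM; -0.99 ± 0.14), and Emx1 (from 22.9 and 23.6 to 10.9 and 9.86 FPKM; -1.09 ± 0.07). Pax2 (9.39 and 6.52 and 8.08 and 7.55 FPKM) was not called.

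Signals between cells changed in both directions. Of 27 listed chemokine genes 17 were tested, and 12 of these were higher and none lower. Genes such as Ccl20, near 0 without I/R, passed the level filter through their I/R levels, which tilts this count towards rises. Ccl2, the main monocyte attractant, went from 0.783 and 0.0543 to 9.53 and 7.47 FPKM (2.78 ± 0.26). Cxcl10 went from 0.932 and 1.4 to 9.702 and 7.96 FPKM (2.18 ± 0.18). The membrane-bound chemokine gene Cx3cl1 went from 21.4 and 20.9 to 40.3 and 52.7 FPKM (1.09 ± 0.12). Ccl28 lay lower in both I/R libraries without a call (19.5 and 15.9 and 6.52 and 6.61 FPKM; -1.30 ± 0.50). Of 19 cytokine and receptor genes 13 were higher and 1 lower. Lif, a cytokine that signals through gp130, rose from 0.176 and 0.242 to 4.82 and 5.69 FPKM (2.37 ± 0.13), together with Osmr, the oncostatin M receptor gene (from 0.903 and 0.863 to 3.61 and 4.28 FPKM; 1.39 ± 0.12), and the feedback inhibitor gene Socs3 (from 1.61 and 0.599 to 15.2 and 18.6 FPKM; 3.12 ± 0.26), while the shared receptor gene Il6st (0.09 ± 0.11) did not pass. Il15 was the cytokine gene that fell (from 8.92 and 9.49 to 4.303 and 4.15 FPKM; -0.97 ± 0.07). Interleukin 6, tumor necrosis factor and interleukin 1 beta genes (Il6, Tnf, Il1b) were under the level filter in these libraries. Growth factor genes counted 5 higher and 4 lower of 22, and 10 and 3 at an equal sum of FPKM: Gdf15, a stress-induced member of the TGF-beta family, rose from 5.74 and 4.61 to 41.6 and 49.2 FPKM (2.91 ± 0.13). The EGF receptor ligand gene Hbegf went from 11.2 and 9.198 to 20.7 and 20.7 FPKM (0.96 ± 0.13). Nrg1 went from 0.633 and 0.8303 to 4.07 and 3.46 FPKM (1.46 ± 0.12), while Egf fell as above and Egfr was not called (0.17 ± 0.08). Tgfb1 and its receptor gene Tgfbr2 rose from 3.08 and 2.15 to 7.86 and 8.45 FPKM (1.35 ± 0.13) and from 11.1 and 10.2 to 21.95 and 23.6 FPKM (1.03 ± 0.12). Of the YAP and TEAD target list 6 of 13 were higher, 10 at an equal sum of FPKM, with Ankrd1 at 0.649 and 0.455 and 9.29 and 18.9 FPKM (3.21 ± 0.31), Cyr61 at 16.3 and 20.5 and 64.3 and 83.2 (1.94 ± 0.20), and Ctgf without a call (25.1 and 28.4 and 27.3 and 37.8 FPKM; 0.26 ± 0.15). Aldh1a2, which makes retinoic acid, rose from 1.52 and 1.34 to 38.8 and 54.8 FPKM (4.28 ± 0.18). The vitamin D degrading enzyme gene Cyp24a1 rose from 15.6 and 18.1 to 43.2 and 55.7 FPKM (1.49 ± 0.32), a call lost without control replicate 1 (adjusted p = 0.0529) or I/R replicate 2 (adjusted p = 0.0638).

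Innate defence genes were higher. Of 20 acute phase and complement genes 18 rose and 1 fell. The 3 fibrinogen chain genes Fga, Fgb and Fgg, best known from liver, went from 7.72 and 6.02 to 61.6 and 58.8 FPKM (2.97 ± 0.21), from 0.134 and 0.0974 to 7.85 and 4.97 FPKM (2.70 ± 0.19) and from 4.07 and 3.22 to 62 and 62.9 FPKM (3.78 ± 0.15), while the liver gene Alb was at 2.66 and 2.93 and 0.641 and 1.12 FPKM and fell (-1.02 ± 0.17). C3, the central complement gene, went from 11.3 and 1.86 to 197 and 57.1 FPKM (4.18 ± 0.75), with replicates apart in both groups. Cfb was called lower (from 9.48 and 11.1 to 7.14 and 4.96 FPKM; -0.69 ± 0.22) and lost that call without control replicate 1 or 2 or I/R replicate 2 (adjusted p = 0.0831, 0.183 and 0.212). Of 23 interferon response genes 20 were higher, with a median of 1.00. Ifit3, Ifitm3 and Ifit1, which restrict virus growth, went from 8.06 and 6.98 to 24.6 and 29.1 FPKM (1.71 ± 0.22), from 37.8 and 39.2 to 109 and 104 FPKM (1.44 ± 0.14) and from 1.34 and 1.23 to 5.296 and 4.498 FPKM (1.36 ± 0.21). The ubiquitin-like modifier gene Isg15 went from 4.21 and 3.599 to 16.4 and 10.5 FPKM (1.53 ± 0.32) and no longer passed without control replicate 2 (adjusted p = 0.0553) or I/R replicate 1 (adjusted p = 0.0624), and the count for the list was 11 and 10 without these libraries. Rsad2 was not called (0.17 ± 0.12). Antigen presentation counted 9 higher and none lower of 15, 6 without I/R replicate 1, with the class I light chain gene B2m at 323 and 265 and 569.5 and 508 FPKM (0.88 ± 0.15) and the heavy chain gene H2-K1 without a call (0.55 ± 0.21). Among pattern recognition genes, Tlr2 rose from 1.31 and 0.8001 to 7.16 and 6.08 FPKM (1.90 ± 0.15).

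The starts of the interferon genes Isg15 and Ifit3 are printed because most of this list held the ISRE core, GAAANNGAA on either strand, which capitals mark.
Isg15: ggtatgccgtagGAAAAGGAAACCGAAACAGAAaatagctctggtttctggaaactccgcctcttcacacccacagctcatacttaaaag
Ifit3: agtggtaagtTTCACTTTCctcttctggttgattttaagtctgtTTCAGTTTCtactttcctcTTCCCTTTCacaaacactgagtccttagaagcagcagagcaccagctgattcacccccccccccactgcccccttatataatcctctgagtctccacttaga
In Isg15 (chr4:156200819-156200908, minus strand) matches begin at -78, -72 and -66 and overlap into a single run, and in Ifit3 (chr19:34583364-34583528, plus strand) they begin at -155, -121 and -102 on the other strand. Of the 18 list members with a window 10 held the core (55.6%), against 7.01% of all tested genes and 8.57% of all RefSeq windows.

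Cell death and damage genes rose in part. Of 20 cell death genes 10 were higher and 1 lower: the necroptosis genes Mlkl and Ripk3 went from 0.5802 and 0.832 to 3.86 and 3.09 FPKM (1.39 ± 0.15) and from 0.583 and 0.405 to 2.57 and 2.76 FPKM (1.30 ± 0.14). The pore-forming gene Bak1 went from 5.47 and 4.34 to 13.2 and 12.1 FPKM (1.22 ± 0.12), whereas Ripk1 (0.06 ± 0.10), Bcl2 (-0.02 ± 0.11) and the ferroptosis brake Gpx4 (-0.17 ± 0.12) were not called. Of 19 p53 target genes 11 were higher and 1 lower, with Phlda3 at 4.16 and 3.41 and 11.9 and 13.9 FPKM (1.54 ± 0.11) and Mdm2, the feedback ligase gene, at 11.4 and 13.1 and 12.4 and 13.5 (0.08 ± 0.10) without a call. Serine synthesis and ATF4 genes counted 7 higher and 1 lower of 15. Phgdh, the first enzyme gene of serine synthesis, rose from 5.195 and 4.15 to 23.2 and 25.7 FPKM (2.17 ± 0.13). The asparagine synthetase gene Asns went from 1.47 and 1.72 to 6.16 and 6.53 FPKM (1.50 ± 0.09). The mitochondrial enzyme gene Shmt2 fell from 98.2 and 100.3 to 48.7 and 54.4 FPKM (-0.93 ± 0.08) and Atf4 itself was not called (0.30 ± 0.16). NRF2 antioxidant genes counted 11 higher and 4 lower of 22: Cbr3, a carbonyl reductase gene, rose from 1.67 and 0.888 to 9.75 and 7.56 FPKM (2.09 ± 0.22). Hmox1, heme oxygenase, went from 29.5 and 35.2 to 59.6 and 66.5 FPKM (0.94 ± 0.11). Me1, malic enzyme, fell from 193 and 173 to 80.4 and 98.5 FPKM (-1.03 ± 0.12), with Txnrd1 not called (0.09 ± 0.07). Among chaperones 13 of 23 were lower and 2 higher. Hsph1 and Herpud1 fell from 32.9 and 39.9 to 12.3 and 15.4 FPKM (-1.34 ± 0.13) and from 257 and 270.3 to 91.03 and 119 FPKM (-1.33 ± 0.19). The small heat shock genes Hspb1 and Hspb8 rose from 16.3 and 10.4 to 76.1 and 61.3 FPKM (2.31 ± 0.28) and from 2.41 and 2.25 to 6.22 and 6.496 FPKM (1.14 ± 0.08). That balance rests on scale and library: at an equal sum of FPKM 6 were lower and 5 higher, and 5 and 7 were lower without control replicate 2 and without I/R replicate 1. Of 18 hypoxia targets 7 were lower and 4 higher, a majority that turned at an equal sum of FPKM (7 higher and 2 lower) and shrank without control replicate 2 (3 and 3) or I/R replicate 1 or 2 (3 higher and 4 lower in each); Lox rose as above, Bnip3 fell from 54.9 and 54.1 to 32.2 and 30.6 FPKM (-0.78 ± 0.09) and the glycolysis gene Ldha was at 217 and 228 and 213 and 227 FPKM (-0.02 ± 0.11), though called higher at an equal sum of FPKM.

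Energy metabolism genes were lower together. Of 27 fatty acid oxidation and peroxisome genes 24 were lower and none higher, with a median of -0.65. The medium-chain acyl-CoA synthetase genes Acsm3 and Acsm2 went from 142 and 115 to 23.9 and 33.1 FPKM (-2.14 ± 0.21) and from 718 and 789 to 263 and 271 FPKM (-1.49 ± 0.09). The medium-chain dehydrogenase gene Acadm went from 300.4 and 300.2 to 106 and 108 FPKM (-1.48 ± 0.12; limma, adjusted p = 2.49e-04). Cpt1a, the gate of fatty acids into mitochondria, went from 143 and 156 to 92.3 and 97.8 FPKM (-0.65 ± 0.10). All but Cs of 17 tricarboxylic acid cycle genes were lower, with Sdha from 241 and 256 to 149 and 140.1 FPKM (-0.78 ± 0.07). Idh2 went from 211 and 227 to 134 and 130.2 FPKM (-0.73 ± 0.09). Cs, citrate synthase, differed by -0.18 ± 0.09. Of 26 nuclear oxidative phosphorylation genes 25 were lower, Ndufs1 of complex I from 40.3 and 39.6 to 22.6 and 25.2 FPKM (-0.72 ± 0.08). Atp5b of ATP synthase went from 803 and 820 to 528 and 518 FPKM (-0.63 ± 0.08). Counts depended on scale and library: the cycle list had 10 lower at an equal sum of FPKM, and the phosphorylation list 14 there, 14 without control replicate 2 and 15 without I/R replicate 1. Mitochondrial transcripts took 8.19% and 8.36% of reads in the controls and 5.93% and 6.31% after I/R. Mt-Cytb (mt-Cytb in the files) went from 15555 and 16977 to 9264 and 9721 FPKM (-0.78 ± 0.13), and 8 of 13 such genes were lower; none was called with no filter on low genes, 4 at an equal sum of FPKM and 5 without control replicate 1. Of 13 gluconeogenesis and fructose genes 10 were lower and 2 higher. Pck1, the rate-limiting enzyme gene, went from 1357 and 1242 to 494 and 684 FPKM (-1.16 ± 0.18). G6pc went from 341 and 434 to 109.5 and 175 FPKM (-1.47 ± 0.22). Fbp1 went from 726 and 767 to 382 and 362 FPKM, while the mitochondrial isoenzyme gene Pck2 rose from 2.32 and 2.42 to 4.86 and 4.28 FPKM (0.72 ± 0.10). Glycolysis genes counted 4 lower and 2 higher of 15, a balance that turned at an equal sum of FPKM (1 lower and 4 higher). The counts were 2 and 2 with the 4 wild-type libraries alone, 2 and 2 without control replicate 1 or I/R replicate 2, and 1 and 1 without control replicate 2 or I/R replicate 1. Gapdh, often used as a reference gene, was at 4.17 and 4.997 FPKM in the controls and 41.3 and 3.04 after I/R, 1 library apart from the other 3; its reads may be shared with pseudogenes. Of 30 amino acid catabolism genes 23 were lower and 1 higher, with Hpd of tyrosine breakdown from 25.9 and 32.1 to 5.85 and 1.52 FPKM (-2.84 ± 0.45). Arg2, the mitochondrial arginase gene, rose from 3.297 and 2.56 to 10.8 and 10.9 FPKM (1.60 ± 0.23). Along the path from tryptophan to NAD, Kmo and Haao fell from 36.1 and 38.03 to 14.6 and 14.7 FPKM (-1.28 ± 0.07) and from 156 and 176 to 70.7 and 77.4 FPKM (-1.15 ± 0.10). Nnmt, which consumes nicotinamide, rose from 0.323 and 0.157 to 2.29 and 3.79 FPKM (1.68 ± 0.23). Plin2, the lipid droplet coat gene, and Apoe rose from 26.5 and 22.8 to 65.6 and 64.1 FPKM (1.36 ± 0.13) and from 107 and 100.3 to 302 and 224 FPKM (1.32 ± 0.24). Lpl and Cd36 of fatty acid uptake fell from 89.4 and 68.5 to 21.8 and 26.8 FPKM (-1.66 ± 0.18) and from 156 and 139.5 to 64.5 and 92.6 FPKM (-0.93 ± 0.18).

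Core protein machinery moved by less. Among 95 cytosolic ribosomal protein (Rpl and Rps) genes and copies 41 were higher and 1 lower, with a median of 0.34, whereas 29 of 77 mitochondrial ribosomal protein genes were lower and 1 higher (median -0.24). Proteasome (Psm) genes were level, with 39 of 48 not called, and the called ones were led by the interferon-induced subunits Psme2 (1.18 ± 0.20) and Psmb10 (1.13 ± 0.15). Of 23 ribosome biogenesis genes 12 were higher, 21 at an equal sum of FPKM and between 4 and 7 with any 1 of the 4 wild-type libraries left out (4 without control replicate 1, 7 without control replicate 2, 6 without I/R replicate 1 and 7 without I/R replicate 2), with Npm1 from 42.97 and 48 to 82.1 and 91.4 FPKM (0.92 ± 0.11). Lysosomal genes counted 10 higher and 3 lower of 23 (6 and 2 without control replicate 2), led by the cathepsin genes Ctss (from 17.2 and 10.4 to 47.9 and 48.8 FPKM; 1.78 ± 0.21) and Ctsd (from 184 and 182 to 410.1 and 481 FPKM; 1.28 ± 0.10). Abundant genes that hardly moved included Igfbp7 (923 and 979 and 976 and 959 FPKM; 0.03 ± 0.10), the ferritin light chain gene Ftl1 (865 and 787 and 862 and 863; 0.06 ± 0.09) and Eef2 (638 and 643 and 709 and 673; 0.11 ± 0.08). For 2097 genes the 95% confidence interval of the difference lay within 1.25-fold in either direction. Among 218 long intergenic noncoding RNA genes 63 were lower and 6 higher, and among 217 antisense genes 52 and 5; antisense reads cannot be told from those of the partner gene without strand.

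Clock genes were mostly lower. Of 15 such genes 10 were lower and 1 higher, with a median of -0.78. Ciart, a repressor gene of the clock, went from 14.9 and 16.3 to 1.23 and 1.48 FPKM (-2.82 ± 0.15; limma, adjusted p = 6.86e-05). The output factor genes Dbp, Tef and Hlf, which bind the D-box, went from 41.3 and 46.3 to 11.1 and 11.9 FPKM (-1.84 ± 0.12), from 72.03 and 74.5 to 29.1 and 30 FPKM (-1.28 ± 0.08) and from 27.7 and 29.8 to 10.6 and 11.9 FPKM (-1.28 ± 0.09). Nr1d1 and Per2 of the negative limb fell from 25.1 and 26.7 to 11.5 and 10.3 FPKM (-1.18 ± 0.09) and from 18.1 and 19.5 to 7.57 and 9.004 FPKM (-1.09 ± 0.13). Nfil3, which competes with Dbp for the D-box, was the gene that rose (from 1.92 and 2.75 to 5.87 and 6.13 FPKM; 1.08 ± 0.13), and Clock was not called (0.08 ± 0.09). The sources used here do not give the time of day of collection, so time of day and I/R cannot be told apart for this list. The starts of Ciart and of Acsm3, a lower gene with a D-box, are shown with CACGTG (the E-box) in capitals in the first and TTATGTAA (the D-box) in the second.
Ciart: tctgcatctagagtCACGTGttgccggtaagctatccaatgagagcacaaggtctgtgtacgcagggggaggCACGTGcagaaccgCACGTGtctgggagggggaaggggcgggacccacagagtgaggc
Acsm3: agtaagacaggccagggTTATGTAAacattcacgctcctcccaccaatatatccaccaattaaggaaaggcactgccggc
The E-boxes of Ciart (chr3:95882229-95882358, minus strand) begin at -116, -58 and -44, and the D-box of Acsm3 (chr7:119760843-119760922, plus strand) at -63. Among the 275 genes with a window called lower by at least 1 on the log2 scale, 8 held a D-box (2.91%). The share was 0.535% in all tested genes with a window and 0.955% in all RefSeq windows. Median GC was 55% in those 275 windows and 61% in all tested ones, and its part in the shares was not tested. Of 12 clock genes with a window 4 held an E-box (33.3%, against 10.5% of all tested genes and 7.24% of all RefSeq windows).

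**Figure D4:**
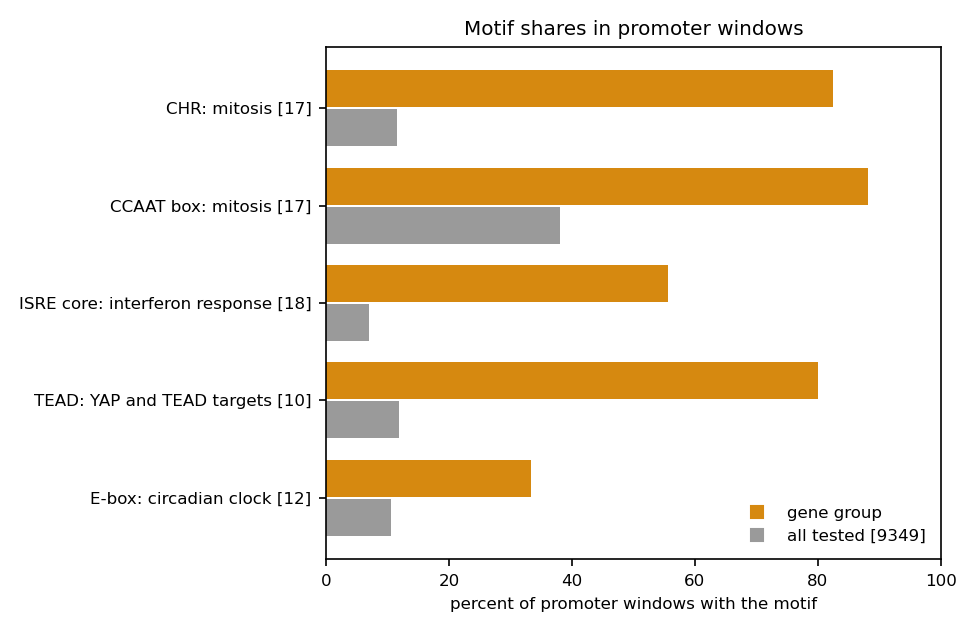
Percent of RefSeq promoter windows (300 bases) that hold each of 5 motifs (horizontal axis, starting at 0) for all tested genes (grey) and for the gene group named at each pair of bars (coloured), with the number of windows in brackets. The widest gap of the 5 is that of the CHR element, at 82.4% of 17 mitosis windows and 11.5% of 9349 tested windows.

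The same contrast in the Utx Pax2-Cre kidneys was set beside the wild-type values. Kdm6a stood at 2.57 and 2.94 FPKM in the controls and 2.998 and 2.97 after I/R in wild type (0.09 ± 0.10). The Utx Pax2-Cre libraries all lay below the 4 wild-type ones for this gene, with levels of 1.99 and 1.91 FPKM in the libraries lacking I/R and of 1.59 and 1.83 FPKM in those with I/R. Ezh2, the gene of the opposing methyltransferase, rose from 0.886 and 0.713 to 2.36 and 2.48 FPKM (0.93 ± 0.13). In the list of Utx and related chromatin genes 2 of 16 were higher, none lower and 14 not called, with a median of 0.07. The difference of the I/R effects between genotypes passed for 38 genes (0.286%); 28 differences were positive and 10 negative, and the absolute effect was larger in wild type for 36 of the 38. Egf fell by 2.92 in wild type and 1.00 in the knockout (difference of effects -1.92 ± 0.14, adjusted p = 0.0262 by limma). Krt20 rose by 4.52 and 2.84 (1.68 ± 0.14, adjusted p = 0.0268, limma), Havcr1 by 6.87 and 5.37 (1.50 ± 0.16, adjusted p = 0.0327, limma) and Gdf15 by 2.91 and 1.46 (1.45 ± 0.18, adjusted p = 0.04499, limma). Cd8a fell by 0.88 in wild type and rose by 1.10 in the knockout (-1.98 ± 0.22, adjusted p = 0.0419, limma). Without I/R it stood at 2.52 and 2.99 FPKM in wild type and at 0.590 and 0.285 in the knockout, which reached 1.99 and 2.15 after I/R. For Lcn2 (6.01 and 3.80) and Slc22a7 (-4.14 and -4.08) the difference did not pass (adjusted p = 0.0615 and 0.957 by limma). The count of 38 rests on single libraries: it was between 0 and 206 when 1 of the 8 was left out, 0 without control replicate 1 and 6 without control replicate 2, 1 without I/R replicate 1 and 0 without I/R replicate 2 of wild type.

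**Figure D5:**
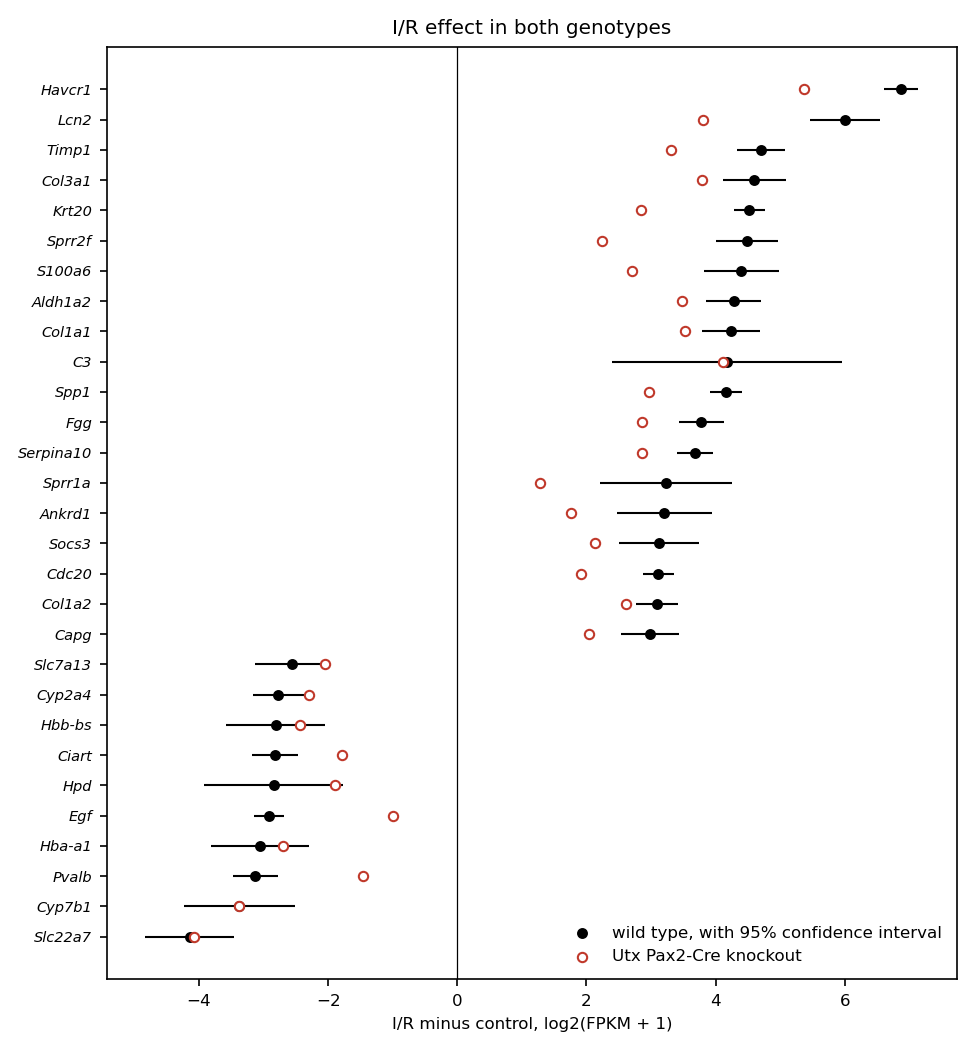
I/R effect on the log2(FPKM + 1) scale (horizontal axis) in wild type (filled circles) and in the Utx Pax2-Cre knockout (open circles) for those genes named in the text that are among the 20 with the greatest rise or the 20 with the greatest fall in wild type (rows), with bars for the 95% confidence interval in wild type. The genes were chosen for their wild-type effect, so a larger effect there follows in part from the choice.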

How the data were processed

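Whole-kidney mRNA, captured on poly-T beads per the labels' protocols, was sequenced from 8 libraries in 4 groups of 2. The deposited table gives FPKM per gene and library; the authors' tools, per the submitters' processing notes, included DESeq2 1.20.0 and featureCounts 1.5.0-p3, and the build named there is GRCm39. However, 53585 of 54495 genes matched by identifier have the coordinates of a GRCm38 annotation, and coordinates are given as deposited. The sources used here name neither the aligner nor the use of strand. FPKM multiplied by gene length gave whole reads, within 0.05, for all values, so depth is known. Control replicate 1 had more reads in genes than I/R replicate 1 (17367872 and 16780542) and yet more FPKM per read. The deposited values were thus not scaled by reads in genes alone, and how the scale was set was not tested. For a gene of 1 kb, 3 reads correspond to 0.191 and 0.185 FPKM in the controls and to 0.167 and 0.154 after I/R. Such limits cover counting error only.

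Genes averaging 1 FPKM or more across all 8 libraries were fitted with limma 3.58.1 in R 4.3.3 on log2(FPKM + 1), with a mean for each group and a mean-variance trend. The scale understates changes of low genes. Contrasts were I/R minus control in wild type, the same in the knockout, and their difference; p-values were adjusted by Benjamini-Hochberg over all genes tested. Gene lists, the promoter motifs and the members were chosen with earlier results of these data known. Named genes are the 20 with the greatest called rise and fall among protein-coding genes, up to 5 called members of each list plus members called against its majority, genes switched on or off, the most abundant genes, a fixed set of marker genes, genes called in the genotype difference, and leading members of symbol families; other genes named, mostly list members without a call, were chosen after their values were seen. Some genes that this rule names, and 5 of the 14 promoter motifs searched, are not reported here. Alternatives were a pseudocount of 0.1, no filter, an equal sum of FPKM, limma-voom on the recovered reads, a replicate block, the wild-type libraries alone, no trend, and leaving out each library. Same-numbered samples deviated together with a correlation of 0.0266 in wild type and 0.046 in the knockout, so the numbers were not taken to pair samples.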

Additional observations from a re-analysis of the deposited data

Results flagged for a closer look

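For 21 of the genes named above, the I/R effect differed between wild type and the Utx Pax2-Cre knockout by a test of the difference itself (limma, adjusted p under 0.05). In parentheses is the wild-type effect minus the knockout effect on the log2(FPKM + 1) scale. It was positive for Sprr2f (2.24), Krt18 (1.87), Krt20 (1.68), Cldn4 (1.51), Havcr1 (1.50), Phgdh (1.49), Ccl20 (1.49), Clu (1.48), Gdf15 (1.45), Anxa3 (1.30), Myc (1.28), Il34 (1.28), Cdc20 (1.21), Spp1 (1.19), Krt8 (0.99) and Asns (0.99). It was negative for Cd8a (-1.98), which fell in wild type and rose in the knockout, and for Egf (-1.92), Pvalb (-1.67), S100g (-1.57) and Slc26a4 (-1.35). All of these calls were among the 38 whose number fell to 0 without control replicate 1, so none of them holds without that library.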

How the results depend on the processing

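The number of genes called for I/R in wild type was 4992 and lay between 4527 and 6073 under the other fits to all libraries or to the 4 wild-type ones; it ran from 3181 to 5453 when 1 of the 8 libraries was left out, lowest without control replicate 2. With an equal sum of FPKM it was 4842 higher and 1231 lower, and 3550 of the 4992 were called there too. With no filter on low values 4898 genes were called, and 3872 of the 4992 were among them. The number of genes called for the genotype difference was 38; it was 14 with a pseudocount of 0.1, 27 with no filter on low values, 61 at an equal sum of FPKM, 177 with limma-voom on recovered reads, and from 0 to 206 with 1 library left out. With replicate number as a block, 4527 genes were called in wild type and 0 for the genotype difference; the numbers are not known to pair samples. The cause of these shifts was not tested. Single genes were run under 9 alternatives, which did not include the fits with no filter, with no trend or without a knockout library. Of 227 named genes with a call, 213 kept it under all 9 alternatives run for single genes and 14 lost it under at least 1. Directions turned for 3 named genes without a call: Cfd, at 26.64 and 0.2682 FPKM in the controls, ranged from -2.34 to 2.11 with a library left out (2.11 without control replicate 1), and Ldha and Slc5a1 by 0.28 at an equal sum of FPKM. The main direction lost its majority in 6 lists, where its count became 1 (podocyte and glycolysis) and 2 (hypoxia) at an equal sum of FPKM, 2 (podocyte) with the replicate block, 2 (endothelium) with the wild-type libraries alone, 2 (endothelium and female-biased genes) without I/R replicate 2, and 0 (B and plasma cells) without control replicate 1; with each wild-type library left out, these counts ran from 2 to 4 for the endothelium and female-biased lists and from 0 to 6 for B and plasma cells. With 2 libraries a group, the median 95% confidence interval of a difference reached 0.27 on the log2 scale to either side.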
